A study of Mus musculus with 8 samples.

Results

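The genes described here are 10 markers of tendon and its matrix, read from messenger RNA of mouse gastrocnemius muscle: Tnmd, Scx, Mkx, Thbs4, Comp, Chad, Fmod, Kera, Dcn and Lum. They were chosen by name, with the row of highest mean taken where a symbol had several, and all 10 were found among the 38741 symbols of the table. Of these, 9 had a mean of at least 1 FPKM (fragments per kilobase of exon, scaled by the authors to the fragments mapped in each library) over the 8 mice and entered the test across 11118 genes; Mkx, at a mean of 0.858 FPKM, did not. The mice were male, on a C57BL6 background, with 4 wild type (called WT1 to WT4) and 4 homozygous for the Bcat2tm1.2Clyn allele (called KO5 to KO8), which targets the mitochondrial branched-chain aminotransferase BCATm. Ages were 9 to 10 weeks in the wild-type group and 10 to 11 weeks in the knockout group, and body weights were 22 to 25 g and 15 to 24 g, differences that cannot be told apart from genotype here. In both groups, dams and weaned young could choose between a rodent chow and a purified diet that lacked branched-chain amino acids. The muscle was excised under anaesthesia, and how much tendon came with it is not given in the labels. The study compared the genotypes.

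Tendon is a rope of type I collagen fibrils laid down by tenocytes. The transcription factors Scx and Mkx drive the tenocyte programme, and Tnmd, a transmembrane glycoprotein, marks mature tenocytes. Thbs4 and Comp are pentameric thrombospondins of the tendon matrix, and Thbs4 is concentrated where muscle joins tendon. Fmod, Kera, Dcn and Lum are small leucine-rich proteoglycans, which coat collagen fibrils and set their diameter, and Chad is a leucine-rich relative that binds cells. Dcn and Lum are also made by fibroblasts throughout muscle connective tissue, so they are less restricted to tendon than the others.

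Tnmd, Fmod, Chad, Thbs4 and Comp shared the same 3 highest mice, and Comp had no window in the RefSeq promoter table. For this reason the 250 bases before the RefSeq starts of the others are shown. They run on the strand of the gene from 5′ to 3′, with every E-box in capitals. The E-box, CANNTG, is the class of site that Scx, a basic helix-loop-helix factor, recognises. The windows are chrX:133850758-133851007 (plus strand) for Tnmd, chr1:134037004-134037253 (plus) for Fmod, chr11:94564797-94565046 (plus) for Chad and chr13:92794819-92795068 (minus) for Thbs4, in GRCm38.p6.
Tnmd: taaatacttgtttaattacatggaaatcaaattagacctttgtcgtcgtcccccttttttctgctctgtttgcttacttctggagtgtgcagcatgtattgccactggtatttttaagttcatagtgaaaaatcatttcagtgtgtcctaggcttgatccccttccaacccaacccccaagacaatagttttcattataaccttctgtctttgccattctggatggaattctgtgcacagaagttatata
Fmod: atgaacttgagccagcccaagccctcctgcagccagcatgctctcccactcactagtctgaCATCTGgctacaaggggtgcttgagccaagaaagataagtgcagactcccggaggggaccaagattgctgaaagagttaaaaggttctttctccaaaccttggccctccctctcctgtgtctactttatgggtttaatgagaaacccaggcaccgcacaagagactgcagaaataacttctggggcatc
Chad: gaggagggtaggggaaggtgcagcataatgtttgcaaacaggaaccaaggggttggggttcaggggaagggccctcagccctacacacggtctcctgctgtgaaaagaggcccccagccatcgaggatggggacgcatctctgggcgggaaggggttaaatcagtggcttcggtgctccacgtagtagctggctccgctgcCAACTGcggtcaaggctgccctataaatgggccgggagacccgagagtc
Thbs4: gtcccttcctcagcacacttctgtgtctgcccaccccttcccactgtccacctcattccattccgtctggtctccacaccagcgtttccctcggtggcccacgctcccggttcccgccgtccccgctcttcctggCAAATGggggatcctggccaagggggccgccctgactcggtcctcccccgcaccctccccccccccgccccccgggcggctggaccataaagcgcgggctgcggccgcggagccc
Fmod held 1 E-box (CATCTG, beginning 189 bases before the start), Chad held 1 (CAACTG, 49 bases before) and Thbs4 held 1 (CAAATG, 115 bases before). Tnmd held 0 in this window, as did Kera, whose window is not shown. The end of the Tnmd window lies inside the gene as deposited, which starts at 133850980. At least 1 CANNTG, which reads the same on both strands, was present in 66.2% of the 32851 windows of this length in the RefSeq table. The Egr site GCGNGGGCG, searched on both strands, was in 0 of the 5 windows found for these genes and in 4.70% of all.

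Some facts of the libraries bear on these genes. Bcat2 stood at 41.2 to 83.0 FPKM in WT1 to WT4 and 2.09 to 5.26 FPKM in knockouts, a fitted log2 difference of -3.65 (SE 0.28, limma adjusted p = 0.00245), in the direction of the labels. Estimated depth relative to WT2 was lowest in WT4 (0.435) and highest in WT3 (1.22). The median deviation of all genes from their 8-mouse mean was -0.35 in KO8 (log2(FPKM + 1)), against -0.07 to 0.16 in the others. WT1 and KO6 held raised fat transcripts and KO6 held skin keratins, and their values stand beside the results below. Markers of skeletal muscle fibre (7 of 8 in the table) summed to between 84799 and 125496 FPKM in all 8 mice. In whole muscle, fewer tendon cells and less RNA per tendon cell cannot be told apart.

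FPKM are scaled by transcript length, so levels can be set beside each other across genes. Dcn was the most abundant, at a mean of 342.8 ± 68.5 FPKM (SD, n = 8), and exceeded Fmod in 8 of 8 mice. Fmod (66.8 ± 47.3 FPKM) and Thbs4 (53.0 ± 25.4 FPKM) came next and could not be ordered, with Fmod the higher in 4 of 8 mice. Thbs4 exceeded Lum in 8 of 8 mice. Lum (18.3 ± 5.05 FPKM), Chad (17.9 ± 16.8 FPKM), Tnmd (13.8 ± 7.98 FPKM) and Kera (10.6 ± 4.60 FPKM) followed, each differing from its neighbour by less than the larger of their SDs. Comp (6.50 ± 5.26 FPKM) and Scx (5.73 ± 1.21 FPKM) were not ordered either, with Comp the higher in 3 of 8 mice, and Mkx (0.858 ± 0.483 FPKM) lay below Scx in every mouse.

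**Figure D1:**
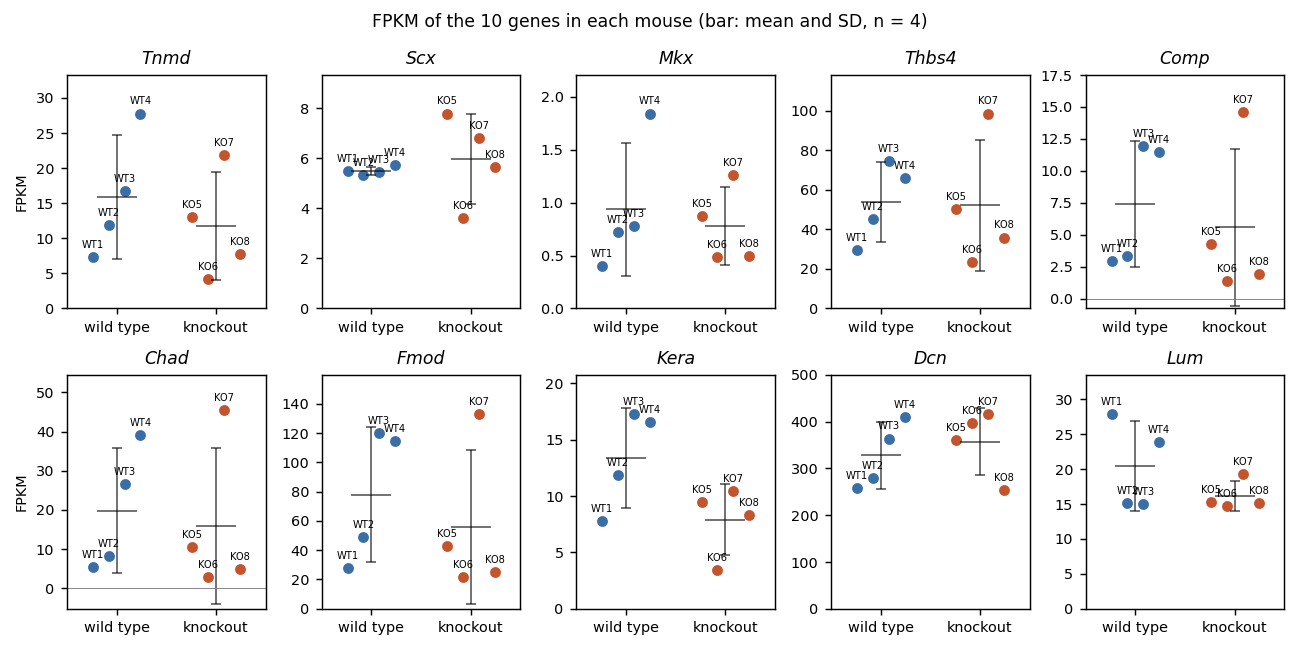
FPKM of each gene in each mouse (vertical axis, linear), wild type in blue and knockout in orange, with the mean and SD of 4 mice as bars; the knockout SD bars of Comp and Chad reach below 0 because the SD exceeds the mean. WT3, WT4 and KO7 sit high and KO6 sits low in most panels, and in every panel the genotypes overlap.

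Tnmd (ENSMUSG00000031250, mm10 chromosome X, 133850980 to 133865577), the tenocyte marker, read 7.26, 11.8, 16.7 and 27.8 FPKM in WT1 to WT4 and 13.0, 4.17, 21.9 and 7.70 FPKM in KO5 to KO8. WT4 and KO7 were the highest and KO6 the lowest, a 6.66-fold range, and the genotypes overlapped. Its fitted difference was -0.48 (knockout minus wild type, log2(FPKM + 1), SE 0.51, 95% interval -1.64 to 0.68, limma adjusted p = 0.666).

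Scx (ENSMUSG00000034161, chromosome 15, 76457438 to 76459468), the tendon transcription factor, was nearly level in wild type, at 5.49, 5.32, 5.43 and 5.71 FPKM. The knockouts spread around these values, at 7.78, 3.62, 6.82 and 5.65 FPKM. Its SD was 0.165 FPKM in WT1 to WT4 and 1.79 FPKM in knockouts, and this difference in spread was not tested. Scx lies inside Bop1, a gene of ribosome assembly read from the opposite strand. The annotated exons share 0 bases, so reads from the exons of the 2 genes lie apart. Reads of Bop1 from outside its exons could still count toward Scx, since the strand setting of the counting is not given. Bop1 itself read 6.46 to 9.81 FPKM in WT1 to WT4 and 4.71 to 7.96 FPKM in knockouts.

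Mkx (ENSMUSG00000061013, chromosome 18), a homeobox factor of tendon, read 0.403, 0.720, 0.782 and 1.84 FPKM in WT1 to WT4 and 0.875, 0.486, 1.26 and 0.496 FPKM in knockouts. WT4 and KO7 were highest, as for Tnmd, and WT1 and KO6 lowest. The deposited interval of Mkx also spans a neighbouring gene model on the same strand that shares 4.91% of its exon bases, so its low values are uncertain. With no filter on low values its fitted difference was -0.09 (SE 0.25, limma adjusted p = 0.892).

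Thbs4 (ENSMUSG00000021702, chromosome 13, 92751590 to 92794818), the thrombospondin of the muscle-tendon junction, read 29.6, 45.2, 74.7 and 66.0 FPKM in WT1 to WT4 and 50.5, 23.4, 98.6 and 35.9 FPKM in knockouts. The knockout mouse KO7 was the highest of all 8 and KO6 the lowest, and the group means, 53.9 ± 20.4 and 52.1 ± 32.9 FPKM (SD, n = 4 each), were close beside that spread (fitted difference -0.16, SE 0.45, limma adjusted p = 0.883). Comp (ENSMUSG00000031849, chromosome 8, 70373548 to 70382065), which bridges collagen fibrils, read 2.98, 3.31, 11.9 and 11.5 FPKM in WT1 to WT4 and 4.32, 1.42, 14.6 and 1.94 FPKM in knockouts. Here 3 mice, WT3, WT4 and KO7, stood at 11.5 to 14.6 FPKM and the other 5 at no more than 4.32 FPKM. The fitted difference of Comp was -0.56 (SE 0.65, limma adjusted p = 0.696).

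Chad (ENSMUSG00000039084, chromosome 11, 94565047 to 94569127), the cell-binding leucine-rich protein of cartilage and tendon, varied most of the 10. It read 5.34, 8.27, 26.6 and 39.0 FPKM in WT1 to WT4 and 10.6, 2.82, 45.4 and 4.91 FPKM in knockouts, a 16.1-fold range. The same 3 mice were the highest, and the fitted difference was -0.61 (SE 0.85, limma adjusted p = 0.748). Chad lies inside Acsf2, an acyl-CoA synthetase gene on the other strand that shares 0 exon bases with it and read at most 3.22 FPKM.

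Chad and Comp are also cartilage genes. Of the 8 cartilage and bone markers, 7 were under the 1 FPKM filter, with Ibsp and Bglap, bone matrix genes, listed at 0 in every mouse. Acan, the main cartilage proteoglycan, reached at most 0.0353 FPKM and Matn1, cartilage matrilin, at most 0.0386 FPKM. Col2a1, the cartilage collagen, picked with its values in view, was highest in WT4, WT3 and KO7, the same mice as Chad. It read 0.513, 0.281 and 0.170 FPKM there and at most 0.0627 FPKM in the others. No other marker of the list had exactly these mice as its highest. The summed level of the list was 0.582 to 2.38 FPKM in WT1 to WT4 and 0.885 to 1.96 FPKM in knockouts. Col9a1, which encodes a type IX collagen chain, was the highest of the list in every mouse except WT4, where Col2a1 was higher. Col9a1, the only marker of the list that was tested, was highest in WT2, KO7 and KO8 and lowest in WT4.

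Among the proteoglycans, Fmod (ENSMUSG00000041559, chromosome 1, 134037254 to 134048277), which binds type I collagen and is abundant in tendon, read 28.2, 49.1, 120.2 and 114 FPKM in wild type. In knockouts it read 42.7, 21.9, 133 and 25.2 FPKM. WT3, WT4 and KO7 again stood apart, at 114 to 133 FPKM against 21.9 to 49.1 FPKM in the other 5 mice. The fitted difference was -0.63 (SE 0.65, 95% interval -2.11 to 0.84, limma adjusted p = 0.652).

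Kera (ENSMUSG00000019932, chromosome 10, 97607205 to 97613688), keratocan, known best from the cornea, read 7.78, 11.8, 17.3 and 16.6 FPKM in WT1 to WT4 and 9.47, 3.42, 10.4 and 8.34 FPKM in knockouts. All 4 knockouts lay below the wild-type mean of 13.4 FPKM, but WT1 lay below 3 of the knockouts, so the genotypes overlapped. Its fitted difference was -0.72 (SE 0.35, 95% interval -1.51 to 0.07, limma unadjusted p = 0.0703, adjusted p = 0.484; exact permutation p = 0.143). This was the smallest limma p of the 9 genes tested.

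Dcn and Lum behaved otherwise, Dcn mainly through its narrow range and KO6. Dcn (ENSMUSG00000019929, chromosome 10, 97479500 to 97518162), decorin, read 258, 280.15, 364 and 410.4 FPKM in WT1 to WT4 and 361, 397, 417 and 255 FPKM in knockouts, a 1.64-fold range. KO6, the lowest mouse for 8 of the 10 genes, ranked the third highest for Dcn. From the highest, and with KO6 set aside, the mice ran KO7, WT4, WT3, KO5, WT2, WT1 and KO8 for Dcn. For Tnmd they ran WT4, KO7, WT3, KO5, WT2, KO8 and WT1, a similar order. Lum (ENSMUSG00000036446, chromosome 10, 97565501 to 97572703), lumican, read 27.9, 15.1, 15.0 and 23.9 FPKM in WT1 to WT4 and 15.3, 14.7, 19.3 and 15.1 FPKM in knockouts. Lum had a fitted difference of -0.29 (SE 0.22, limma adjusted p = 0.602). Its highest mouse was WT1, which ranked from the fifth to the last in the other 9 genes.

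Dcn, Lum and Kera are neighbours read from the plus strand of chromosome 10. With Epyc, the cartilage proteoglycan that follows them, they span 203 kb. Epyc was at most 0.0351 FPKM. Despite their shared location the 3 expressed genes ranked the mice differently: the highest mouse was KO7 for Dcn, WT1 for Lum and WT3 for Kera. Kera as a percentage of Dcn ran from 0.861% in KO6 to 4.75% in WT3, and Lum from 3.70% in KO6 to 10.8% in WT1. Fmod, on chromosome 1, as a percentage of Dcn was lowest in KO6 and highest in WT3, KO7 (31.9%) and WT4 (27.9%), with the other 4 mice at 9.92% to 17.5%.

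**Figure D2:**
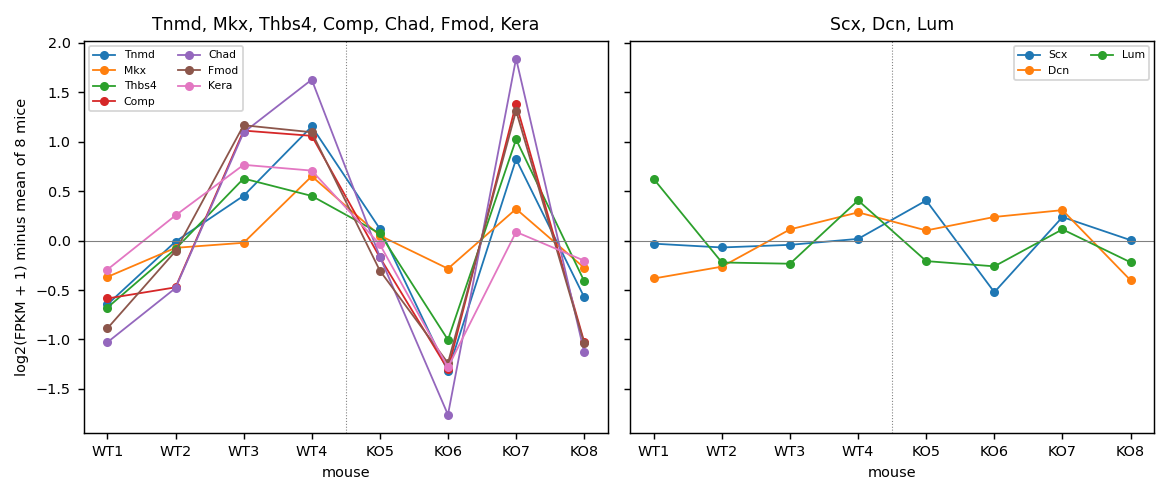
Deviation of each gene from its mean over the 8 mice, log2(FPKM + 1), by mouse; lines join the values of 1 gene and imply no order of the mice. The 7 genes on the left are above their mean or near it in WT3, WT4 and KO7 and below it in WT1, KO6 and KO8. On the right, Scx and Lum follow other orders. Dcn is above its mean in WT3, WT4 and KO7 and below it in WT1 and KO8, but above it in KO6.

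Mice of both genotypes stood at each end of the range. WT4 was among the 3 highest mice for 10 of 10 genes and KO7 for 9 of 10, while KO6 was the lowest for 8 of 10. WT1 and KO8 were each among the 3 lowest for 8 of 10. KO8 also read low over all genes (median deviation -0.35), and no share of all genes is given for these ranks. For 5 of the 9 genes tested (Tnmd, Thbs4, Comp, Chad and Fmod) the 3 highest mice were exactly WT3, WT4 and KO7, against 3.5% of all tested genes; this set of mice was picked after the values were seen. These 3 mice had estimated relative depths of 1.22, 0.435 and 1.21, which include the highest and the lowest estimate. A link of depth to these ranks was not tested.

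The spread of these genes between mice of the same genotype was measured as the residual SD of log2(FPKM + 1). It was 1.43 for Chad, 1.08 for Comp, 1.08 for Fmod, 0.84 for Tnmd, 0.74 for Thbs4 and 0.56 for Kera, against a median of 0.30 over all 11118 genes. These values lay between the percentiles 83.8 (Kera) and 94.7 (Chad) of all genes. Scx (0.29), Lum (0.33) and Dcn (0.32) lay near the middle, at percentiles 46.0, 59.1 and 54.9.

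**Figure D3:**
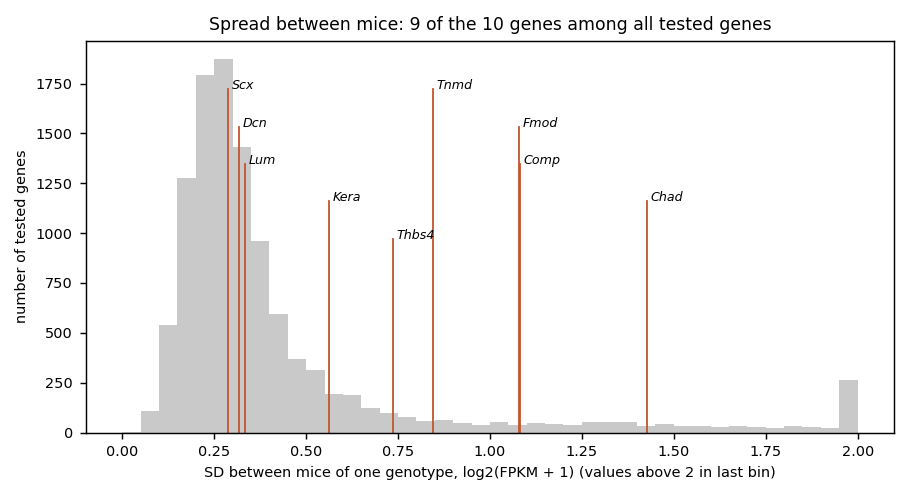
Number of tested genes (bars) by SD between mice of 1 genotype, log2(FPKM + 1), with 9 of the 10 genes marked as lines. Scx, Dcn and Lum sit in the bulk of genes, and Kera, Thbs4, Tnmd, Fmod, Comp and Chad sit to its right, up to 1.43.

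Tnmd was compared with each of the other 9 genes over the 8 mice, on log2(FPKM + 1), with exact permutation tests and adjustment over the 9 relations. It tracked Thbs4 (Pearson r = 0.93, permutation p = 0.00129, adjusted p = 0.00339; Spearman rho = 0.93, permutation p = 0.00223, adjusted p = 0.0067). Without WT4 and KO6, the mice farthest from the median of Tnmd, r was 0.98. It also tracked Mkx (r = 0.90, permutation p = 0.00188, adjusted p = 0.00339; rho = 0.95, permutation p = 0.00114, adjusted p = 0.00513; r = 0.95 without these 2 mice). Kera gave r = 0.87 (permutation p = 0.00454, adjusted p = 0.00681) and rho = 0.83 (permutation p = 0.0154, adjusted p = 0.0231), but r = 0.64 without these 2 mice, so the relation rests in part on them. Scx did not pass (r = 0.62, permutation p = 0.0945, adjusted p = 0.122; rho = 0.60, permutation p = 0.132, adjusted p = 0.149; r = 0.41 without these 2 mice). For Comp, Chad, Fmod, Dcn and Lum the mice fell into separate sets, with a gap of over 33% of the range and at least 3 mice on each side, so no pooled r is given. Without WT1 and KO6 the relation to Thbs4 no longer passed (r = 0.83, permutation p = 0.0417, adjusted p = 0.0536), nor did that to Kera (r = 0.67, permutation p = 0.143, adjusted p = 0.161). No relation within 1 genotype is given, since each has only 4 mice, and the labels name no batch.

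The genes outside the list whose pattern over the 8 mice was most like that of Tnmd, by Pearson r among 9977 tested genes with a proper gene name, were Cilp2 (r = 0.98), Col11a1 (0.97), Col11a2 (0.97), Kpna3 (0.91) and Cpxm2 (0.91). Cilp2 is a cartilage intermediate layer protein, and Col11a1 and Col11a2 encode chains of the minor fibrillar collagen XI. Cilp2 read 1.47, 2.32, 5.48 and 6.89 FPKM in WT1 to WT4 and 3.19, 0.333, 5.22 and 1.33 FPKM in knockouts, so KO6 was again the lowest. Most like Dcn were Thbs2 (r = 0.94), a thrombospondin of fibroblasts, Apod (0.92), a lipocalin, Plekhf1 (0.92), Drp2 (0.92), a dystrophin relative of Schwann cells, and Rbm33 (0.91). These likenesses were ranked over the same 8 mice and are descriptions. For Dcn the mice fell into separate sets, as stated above, so an r with Dcn can rest on that split. Thbs2 read 2.80 to 3.01 FPKM in WT1, WT2 and KO8 and 4.22 to 5.47 FPKM in the other mice. The rule for separate sets was not applied to the genes outside the list.

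Between the genotypes, 0 of the 9 genes tested passed the limma threshold over all genes (adjusted p from 0.484 to 0.897), where 0.027% of all tested genes did. At an unadjusted p under 0.05, 0 of 9 passed against 10.3% of all (7.33% of all with a lower value in knockouts), and the count was also 0 with robust eBayes. Kera passed it under 3 alternatives: array weights (limma unadjusted p = 0.0409, adjusted p = 0.384), the fit without WT1 (limma unadjusted p = 0.0304, adjusted p = 0.41) and the fit without WT1 and KO6 (limma unadjusted p = 0.0156, adjusted p = 0.445). In the other alternatives Kera did not pass it. Its limma unadjusted p rose to 0.189 under median-ratio scaling, 0.178 under quantile scaling and 0.177 without KO6 alone. Over all genes the balance at this unadjusted p turned with the scaling: 332 were higher and 815 lower as deposited, 750 and 574 under median-ratio scaling, and 610 and 649 under quantile scaling. Groups that did not overlap were found for 0 of 9 genes, against 6.75% of all. The fitted difference was below 0 for 7 of 9 genes, where 63.6% of all genes were, and its median was -0.48 beside -0.12 over all genes. Dcn and Scx were above 0, at 0.12 and 0.06, with 95% intervals of -0.36 to 0.61 and -0.38 to 0.51. Under median-ratio scaling the all-gene median moved to -0.002 and 7 of 9 genes stayed below 0; under quantile scaling Dcn turned to -0.04. The widest intervals were those of Chad, -2.54 to 1.33, and Comp, -2.03 to 0.92. Exact permutation p over the 70 labelled splits ran from 0.143 (Kera) to 0.886 (Scx), including Mkx at 0.743, with 0.0286 the smallest that 4 against 4 mice allow.

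The authors' deposited table carries flags for 2 thresholds of a p-value whose test is not given. In the authors' deposited table Fmod is flagged at both thresholds, under 0.05 and under 0.001, and Tnmd and Kera at the first, with the other 7 genes unflagged. The first flag is set for 20.2% of all tested genes and the second for 10.8%. For Fmod the authors' deposited table gives a wild-type mean of 77.9 with SE 23.1 and a knockout mean of 55.7 with SE 26.2 FPKM. Its highest mouse, KO7, is a knockout. Of the 1203 tested genes flagged under 0.001 in the authors' deposited table, 81.4% had overlapping genotypes. Over all tested genes only 6.75% had groups that did not overlap, so the flagged genes overlapped less often than genes at large.

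**Figure D4:**
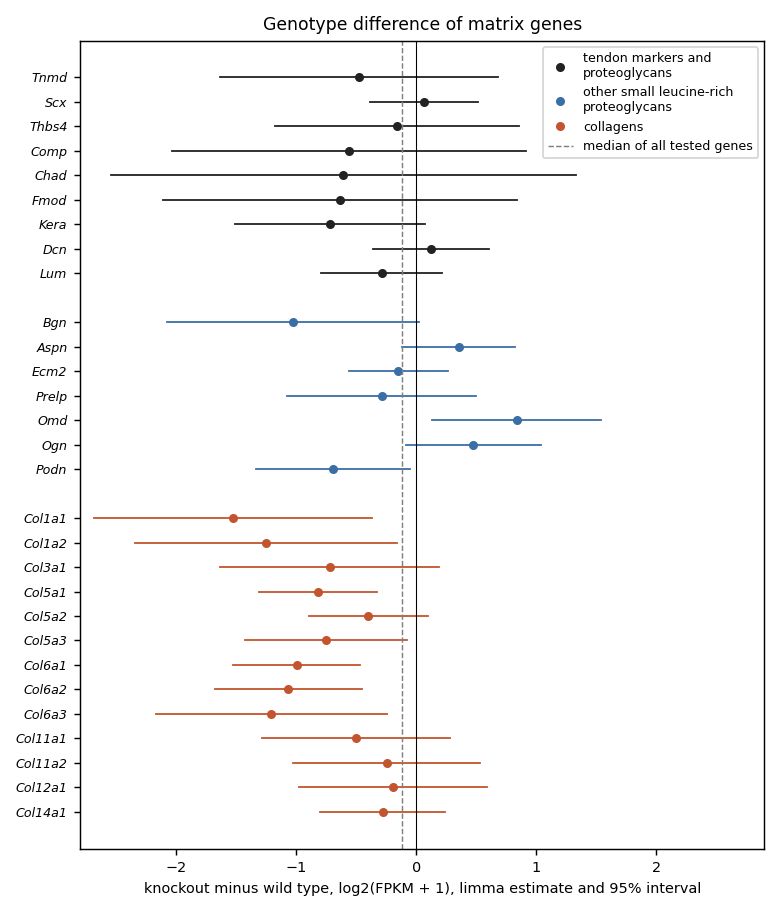
Fitted difference, knockout minus wild type, on log2(FPKM + 1), with 95% intervals by limma, for the 9 tested genes (black), 7 other small leucine-rich proteoglycans (blue) and 13 collagens (orange); the dashed line is the median of all tested genes. Intervals of the tendon genes cross 0, and all 13 collagen estimates lie below it.

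Other proteoglycans of the family went in both directions and none passed. Of 13 such genes in the table, 7 were tested, 4 of them with a fitted value below 0, and their median was -0.15. Omd, osteomodulin, had the smallest p of the 7, at 2.75, 2.99, 1.61 and 6.59 FPKM in WT1 to WT4 and 7.54, 5.82, 7.79 and 4.90 FPKM in knockouts (0.84, SE 0.31, limma adjusted p = 0.48). Only WT4 among the wild-type mice reached the knockout range. Ecm2, Aspn, Omd and Ogn lie together on chromosome 13 within 120 kb, and the fitted differences of Aspn and Ogn, 0.35 and 0.47, lay above 0 like that of Omd, while that of Ecm2 was -0.15. Bgn, biglycan, the closest relative of Dcn, had a fitted value of -1.03, with 10.99 to 44.9 FPKM in knockouts and 25.4 to 72.6 FPKM in wild type. Prelp, which lies near Fmod on chromosome 1, and Ecm2 also had WT3, WT4 and KO7 as their 3 highest mice. Aspn, Ogn, Bgn, Prelp and Ecm2 were picked with their values in view.

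The collagens, which these proteoglycans bind, are given for comparison, and whether they differed from the tendon markers was not tested. All 13 collagens tested had a fitted value below 0, with a median of -0.75, and 7 had an unadjusted p under 0.05 in that direction, beside 7.33% of all tested genes, yet 0 passed over all genes by limma. Col6a1, a chain of the microfibrillar collagen VI, had the smallest p, at 19.8, 13.0, 27.4 and 16.8 FPKM in WT1 to WT4 and 8.63, 7.43, 11.8 and 7.98 FPKM in knockouts (-0.996, SE 0.23, limma adjusted p = 0.48). Its groups did not overlap, as for 4 of the 13 collagens and 6.75% of all tested genes. Col1a1, a chain of the main tendon collagen, picked with its values in view, read 44.8, 30.0, 80.3 and 84.4 FPKM in WT1 to WT4 and 32.5, 7.47, 32.4 and 14.3 FPKM in knockouts. KO7, the highest mouse for Fmod, Thbs4, Comp and Chad, was thus at 32.4 FPKM of Col1a1, while WT3 and WT4 stood at 80.3 and 84.4 FPKM.

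In the other lists 0 genes passed over all genes by limma. Counts below 0 in these lists and the collagens are on the deposited scale, where 63.6% of all tested genes were below 0. Under median-ratio scaling this share of all genes was 50.3%. Among collagen cross-linking and processing genes, 9 of 11 tested had a fitted value below 0 (median -0.36), and Adamts2, the procollagen N-proteinase, averaged 2.55 ± 0.657 FPKM over wild-type mice and 1.48 ± 0.182 FPKM over knockouts (SD, n = 4 per genotype; limma adjusted p = 0.48). Of the other thrombospondins and matrix proteins, 9 of 13 were below 0 (median -0.24). Eln, elastin, had means of 8.01 ± 2.95 and 4.16 ± 1.21 FPKM (limma adjusted p = 0.48). Prg4, lubricin of gliding surfaces, picked with its values in view, was listed at 0 in WT1, WT2, KO6 and KO8 and read 5.94 FPKM in WT3, 28.5 in WT4, 25.1 in KO5 and 40.0 in KO7. Among growth factors and regulators of tendon, 7 of 9 tested were below 0 (median -0.13, close to that of all genes). Smad3, which carries TGF-beta signals to the nucleus, read 13.3 to 22.9 FPKM in WT1 to WT4 and 6.02 to 10.4 FPKM in knockouts (-0.93, SE 0.21, limma adjusted p = 0.48). The tendon growth factors Gdf5, Gdf6 and Gdf7 were under the filter, with Gdf7 listed at 0 in every mouse. In the list named for the myotendinous junction, 8 of 8 genes were below 0 (median -0.35). Values from whole muscle do not show whether these transcripts came from the junction or from elsewhere in the muscle. Itgb1bp2, melusin, which binds integrin tails, read 96.4 to 104.9 FPKM in WT1 to WT4 and 66.7 to 87.6 FPKM in knockouts (-0.50, SE 0.13, limma unadjusted p = 0.00461, adjusted p = 0.48). Its fitted difference was -0.35 under median-ratio scaling (limma unadjusted p = 0.0695) and -0.52 under quantile scaling (limma unadjusted p = 0.0033). Col22a1, the collagen of that junction, picked with its values in view, read 1.79 to 4.13 FPKM in WT1 to WT4 and 1.05 to 3.13 FPKM in knockouts.

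**Figure D5:**
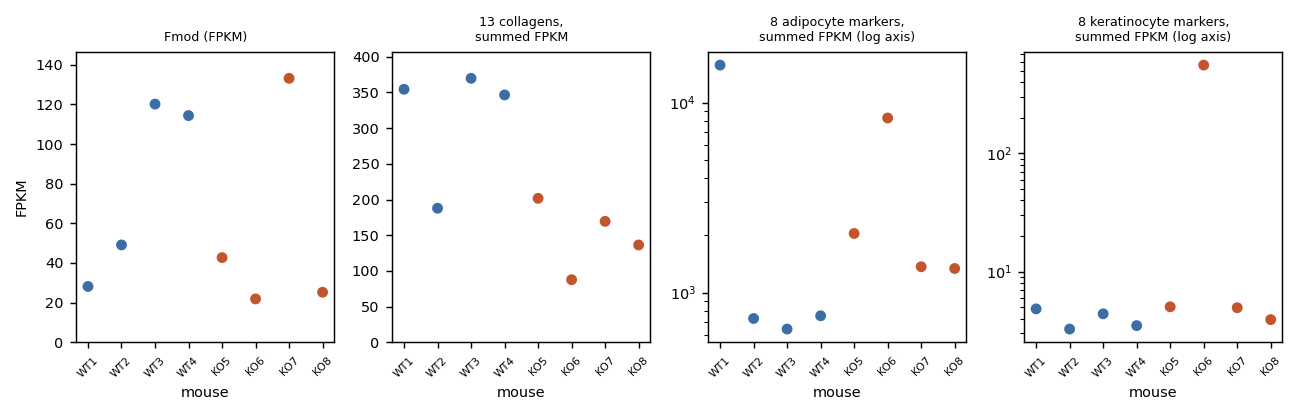
Fmod, the summed FPKM of 13 collagens, and the summed FPKM of 8 adipocyte and 8 keratinocyte markers by mouse, wild type in blue and knockout in orange; the last 2 panels have log axes. WT1 and KO6, low in Fmod, hold the highest adipocyte sums, and KO6 alone holds a high keratinocyte sum.

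Markers of other cells moved with part of this pattern. The 8 adipocyte markers, all tested, summed to 15746 FPKM in WT1 and 8296 FPKM in KO6, against 642 to 2047 FPKM in the other 6 mice, and WT1 and KO6 were among the lowest for Tnmd, Mkx, Thbs4 and Kera. KO8, whose Fmod of 25.2 FPKM lay between those of WT1 and KO6, had an adipocyte sum of 1338 FPKM. Keratinocyte markers summed to 560.1 FPKM in KO6 and to at most 5.03 FPKM elsewhere, where Krt14, Krt5, Krt1, Krt15 and Lor were at or near 0. Without WT1 and KO6, the fitted differences were -0.41 for Tnmd, -0.73 for Fmod, -0.63 for Kera (limma unadjusted p = 0.0156), -0.09 for Lum and -0.04 for Dcn, and 0 of 9 genes passed over all genes. Fibroblast markers (7 of 8 in the table) summed to 152 to 322 FPKM in WT1 to WT4 and 167 to 239 FPKM in knockouts, highest in WT1, and did not set WT3, WT4 and KO7 apart. Schwann cell markers summed to 31.1 to 61.2 FPKM in WT1 to WT4 and 43.5 to 112 FPKM in knockouts, endothelial markers to 44.7 to 75.7 and 27.2 to 51.5 FPKM, and macrophage markers to 23.1 to 61.8 and 30.5 to 57.5 FPKM. The part of these cells, and of how each muscle was cut from its tendon, in the values of the 10 genes was not tested.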

How the data were processed

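Per the labels' protocols, RNA of frozen gastrocnemius went into TruSeq RNA v2 libraries that were read from a single end, with TopHat 2.0.9 and mm10 used for alignment. Per the labels, Cufflinks 2.0.2 turned uniquely mapped reads into the FPKM that the authors deposited, while Cufflinks is listed as 2.2.1 in the submitters' processing notes. The sources used here do not state the annotation or the strand setting. Group means, SEs and flags for p-value thresholds were deposited too, per the file headers. Columns KO5 to KO8 match the knockout group but no single labelled mouse. Nothing in the labels states litters, so p-values measure the spread between these mice.

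The members and lists were chosen with earlier results of these data known. FPKM carry no read totals; relative depth came from the steps of genes under 0.3 FPKM (mode of log2 ratios to WT2, kernel SD 0.05). Genes with a mean of at least 1 FPKM were tested by limma-trend on log2(FPKM + 1), 2-sided, Benjamini-Hochberg adjusted, threshold 0.05, with genotype as the only term; this scale understates changes of low genes. Named genes were the 10, Bcat2, from each list those past the threshold or else the smallest p, and the 5 most like Tnmd and Dcn; others are said to be chosen later. Positions are the deposited start plus 1, and overlaps come from GENCODE M21 on the same build. Of the 10 genes, 5 had a window in the RefSeq promoter table. The code was tested on simulated data. Alternatives were other pseudocounts (0.1, 0.5), filters (none, a mean of 5 FPKM), scalings, eBayes settings, weights, summed rows, FPKM of 0 as missing and mice left out. Software was limma 3.58.1 in R 4.3.3, and Python 3.11.15 with scipy 1.17.1, pandas 2.3.3 and, for plots, matplotlib 3.10.9.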

Additional observations from a re-analysis of the deposited data

Results flagged for a closer look

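In the 10 genes and the 7 others named by rule, 34 groups of 4 mice were checked for a mouse far from the other 3, and 3 were found; by chance about 5% of groups would be. Lum was highest among knockouts in KO7, at 19.3 FPKM against 14.7 to 15.3 FPKM in the other 3. KO7 was also the highest of all mice for Dcn, Fmod, Thbs4, Comp and Chad. Bcat2 was highest among wild-type mice in WT1, at 83.0 FPKM, the mouse with the highest adipocyte markers. Itgb1bp2 was highest among knockouts in KO5, at 87.6 FPKM against 66.7 to 68.5 FPKM in the other 3.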

How the results depend on the processing

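In all 19 alternatives 0 of the tested tendon genes passed, with a lowest limma adjusted p = 0.384 (Kera with array weights). Tnmd, Comp, Chad, Fmod, Kera and Lum kept a fitted value below 0 in every alternative. Dcn turned to -0.044 with quantile scaling and to -0.042 without WT1 and KO6. Scx ranged from -0.06 to 0.25 and Thbs4 from -0.53 to 0.15 with mice left out: Scx turned to -0.062 and -0.0056 without KO5 or KO7, and Thbs4 to 0.024 and 0.15 without WT3 or KO6. Tnmd ran from -0.83 without KO7 to -0.11 without KO6, Fmod from -1.18 to -0.33, Chad from -1.32 to -0.12 and Comp from -1.11 to -0.22 without the same mice, and Lum moved from -0.29 to -0.13 without WT1. The relation of Tnmd to Thbs4 fell to r = 0.83 and that to Kera to r = 0.67 without WT1 and KO6, where 6 mice remain. Over all genes, 3 were called; the count was 1 with FPKM of 0 as missing, 11 without WT1 and KO6, and 4 to 9 with single mice left out (9, 8, 6, 8 and 5 without WT1, WT2, KO6, KO7 or KO8). The cause of these changes was not tested. No paired analysis was possible because the knockout columns carry no number that matches a labelled mouse. Depth in reads is unknown, so Mkx, under 2 FPKM in every mouse, cannot be given a counting error.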
